A study of Mus musculus with 12 samples.

Results

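B lymphocytes isolated from the spleens of Eμ-Myc transgenic mice were compared with those of wild-type mice across all genes. The libraries were chosen by their titles, 4 labelled Eμ-Myc and 4 labelled WT, which makes 8 of the 12 libraries of the study. The WT mice were C57BL/J6. In Eμ-Myc mice a Myc transgene stands under the immunoglobulin heavy-chain enhancer, which is active in the B lineage, so Myc is raised in B cells from early stages on and lymphoma follows in adult life. The remaining 4 libraries came from Eμ-Myc mice that also lacked PRPS2, and they entered only one alternative fit, of all 12 libraries, where the 3 groups share an estimate of the spread. All mice were 6 weeks old, and the purity of the isolated cells and the number of mice behind a library are not given in the sources used here. The labels call the libraries biological replicates without naming animals, so the p-values measure the spread between these libraries. The comparison asks which genes differ between B cells with deregulated Myc and normal B cells.

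Myc is a basic helix-loop-helix leucine zipper transcription factor that pairs with Max and binds the E-box, CACGTG, in the promoters of a large share of active genes. Mxd proteins and Mnt pair with Max in its place and repress the same sites. Myc is best known for raising the genes that let a cell grow and divide, among them those of ribosome production, nucleotide synthesis, mitochondria and the cell cycle, and it is a frequent driver of B-cell lymphoma.

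Values are scaled coverage, the deposited coverage of a gene divided by a scaling factor for its library, and they are compared between genes as levels on the assumption that coverage is a mean over a gene's length. Fold changes are log2, Eμ-Myc minus WT, on log2(scaled coverage + 0.5), which understates the change of genes with low values. A gene was called when its Benjamini-Hochberg adjusted p in limma was under 0.05, and was then said to have risen or fallen. Spreads are SD over the 4 libraries of a group.

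The 8 libraries had summed coverage from 1277305.5 to 1885768.9, with 15422 to 16231 of the 24982 gene symbols above 0, and the 10 highest genes took 5.22% to 5.82% of the sum. Across tested genes, pairs of libraries correlated on the log2 scale with r from 0.958 to 0.993 within WT, 0.973 to 0.990 within Eμ-Myc and 0.864 to 0.938 between the groups. The first principal component held 69.3% of the variance and separated the genotypes. The second held 13.2% and set WT libraries 1 and 4 apart from WT libraries 2 and 3.

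That division within WT was visible in the marker genes of the isolated cell type and of others. The summed coverage of 18 T-cell markers was 2515, 1554, 1867 and 7506 in WT libraries 1 to 4 and 515 to 603 in the Eμ-Myc libraries. For 14 natural killer cell markers the sums were 1774 to 3968 in WT and 603 to 1539 in Eμ-Myc, and for 23 neutrophil and monocyte markers 11479 to 42261 in WT and 8397.5 to 26201 in Eμ-Myc. The 8 general B-cell markers summed to 7099, 13277, 11349 and 6837 in WT libraries 1 to 4 and to 7957 to 9707 in Eμ-Myc, so WT libraries 1 and 4 were the lowest of the 8. Every tested T-cell marker (18 of 18) and 13 of 14 natural killer markers were called lower in Eμ-Myc, where 26.1% of all tested genes were, against 1 of 23 neutrophil and monocyte markers and 1 of 8 B-cell markers, Cd22. Of the other marker lists, dendritic cells had 5 of 10 lower, platelets 4 of 9, plasma cells 4 of 11 (and 3 higher) and stroma 1 of 2, while erythroid cells had 1 of 15 higher. Without WT libraries 1 and 4, an alternative chosen after the data were seen, 5 of the 8 B-cell markers were lower, with a median log2 fold change of -0.55 in place of -0.10. That median was 0.07 without WT library 2, 0.02 without WT library 3, and -0.25 without WT library 1 or without WT library 4. With both WT libraries 1 and 4 left out, 10 natural killer and 8 platelet markers were lower, and 3 neutrophil and monocyte markers were higher and none lower. In that fit 6 erythroid markers were higher (4 without WT library 1 alone). With library weights 11 of the 15 erythroid markers were higher, with a median of 1.64, in a fit where 4537 of all 12723 tested genes were higher. The erythroid list counts some values more than once. Hbb-bt and Hbb-b2 were identical in all 8 libraries, and Hba-a1 and Hba-a2, and Hbb-bs and Hbb-b1, were nearly so. In the fit of all 12 libraries 10 T-cell, 2 natural killer, 2 platelet and 2 plasma cell markers were lower and no dendritic cell marker was. With 1 library left out the platelet count ran from 2 to 8. All 8 B-cell markers were above 1 in every library. No T-cell or natural killer marker was at 0 in all libraries. In bulk libraries fewer cells of a type and less RNA per cell cannot be told apart, and the part of these other cells in the gene results was not tested. Some counts are also given without WT libraries 1 and 4. That fit called 6313 genes, of which 5718 were also called with all libraries, all in the same direction. The fit of all 12 libraries moved the log2 fold changes of the 295 named genes by at most 0.051, and those of the 39 whose call it lost by at most 0.027.

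**Figure D1:**
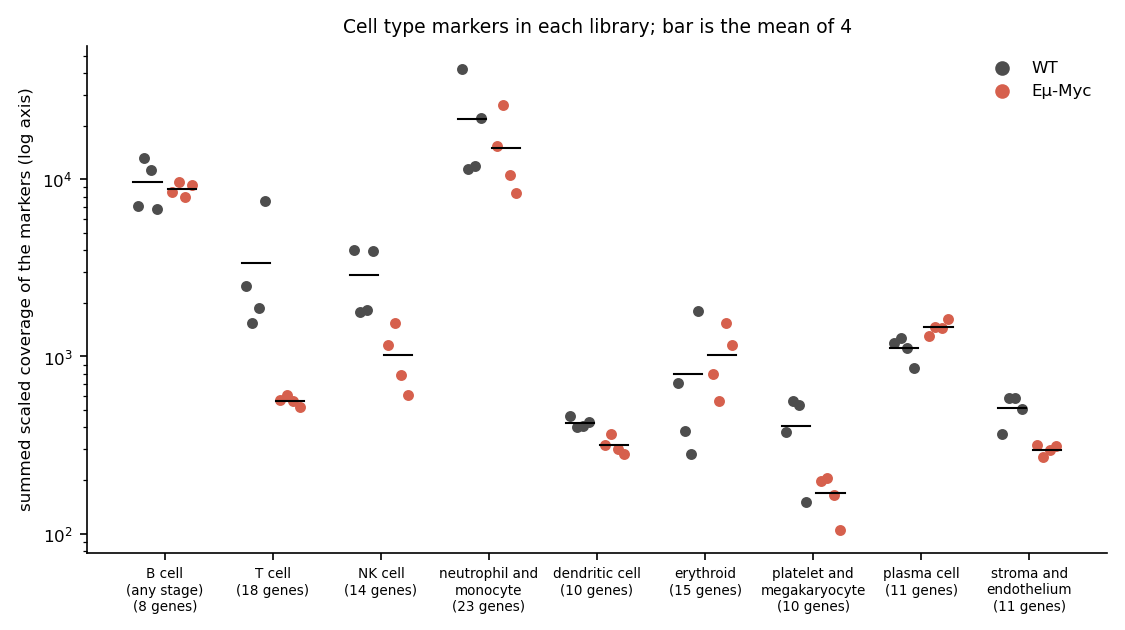
Summed scaled coverage of the marker genes of each cell type (vertical log axis) in the 4 WT and 4 Eμ-Myc libraries, in replicate order from left to right within a group; each point is a library and each bar the mean of 4. The T-cell sums of Eμ-Myc, 515 to 603, lie below all 4 WT sums, and the B-cell sums of the groups overlap.

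Of 12723 genes tested, limma called 7033, or 55.3%. Those higher in Eμ-Myc were 3710 (29.2% of tested genes) and those lower 3323 (26.1%). With a fold change of at least 1 on the log2 scale, 1506 genes were higher (11.8%) and 1356 lower (10.7%). All 4 Eμ-Myc libraries lay above all 4 WT libraries for 3452 genes (27.1%) and below them for 3124 (24.6%). The share of a gene list that was called is therefore given below beside 29.2% higher and 26.1% lower. Those shares of all tested genes were 28.2% and 22.8% without WT libraries 1 and 4, 23.4% and 20% in the fit of all 12 libraries, 24.1% and 33.3% with scaling by total coverage and 24.9% and 21.5% without Eμ-Myc library 4. The median log2 fold change over tested genes was -0.04, and 5% of genes lay below -1.42 and 5% above 1.64. Changes of at least 2 on the log2 scale were called for 414 higher genes and 217 lower ones. The direction split moved with scaling: 52.8% of called genes were higher as scaled here, and 41.9% with libraries scaled by total coverage, which shifted the median fold change by -0.149. Called genes were more often higher than lower among strongly covered genes, at 46.1% against 19.5% of the 1264 genes in the highest of 5 classes of mean coverage, and more often lower among weakly covered ones, at 16.5% against 24.1% of the 1669 genes in the lowest class.

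**Figure D2:**
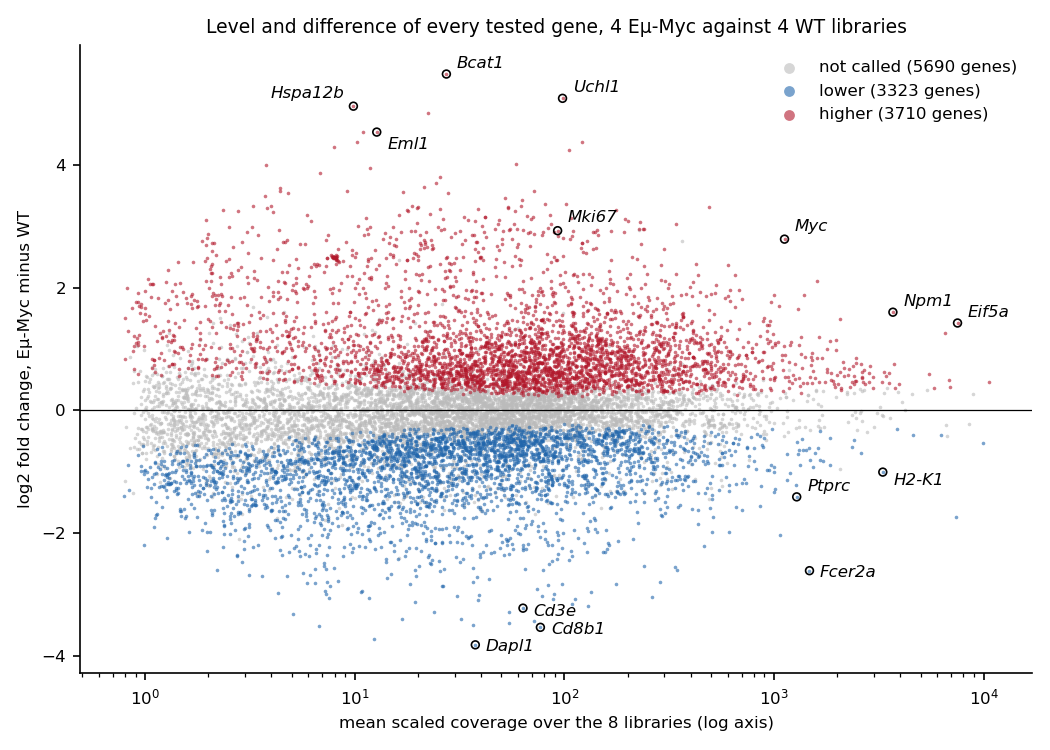
Mean scaled coverage over the 8 libraries (horizontal log axis) and log2 fold change, Eμ-Myc minus WT (vertical axis), for each of the 12723 tested genes. Red points are the 3710 genes called higher, blue points the 3323 called lower and grey points those not called; circled genes are described in the text.

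Myc itself was at 283, 252, 237 and 361 in WT libraries 1 to 4 and 1838, 1585, 2347 and 2069 in Eμ-Myc libraries 1 to 4. The groups did not overlap, and the gap between them was wider than the spread within either. The WT mean ± SD was 283 ± 55.3 and the Eμ-Myc mean ± SD 1960.02 ± 325, with n = 4 in each (log2 fold change 2.79, SE 0.16, adjusted p 3.28e-06). Coverage of Myc does not separate the transgene from the endogenous gene. Prps2, the nucleotide-pathway enzyme that the study deletes in the remaining group, was at 102, 145, 129 and 146 in WT and 248, 202, 258 and 300.2 in Eμ-Myc and also rose (log2 fold change 0.95, SE 0.15, adjusted p 0.000704). Of the 11 tested genes of the Myc, Max and Mxd network 3 rose and 2 fell, beside 29.2% of all tested genes called higher and 26.1% lower. The median of -0.29 was -0.44 with scaling by total coverage and -0.09 without Eμ-Myc library 2. Max, the shared partner, was at 462 ± 67.5 in WT and 447 ± 36.6 in Eμ-Myc and was not called (limma adjusted p 0.8). Mxd3, an Mxd member known from cycling cells, rose from 8.88 ± 3.28 to 47.5 ± 8.31 (log2 fold change 2.40, SE 0.23, adjusted p 3.17e-05). Mlx, the partner of the glucose-sensing branch of the network, fell by 0.43 (limma adjusted p 0.00701; 0.0576 without WT libraries 1 and 4). Mnt, a Max-binding repressor, was at 34.7 ± 2.42 in WT and 27.3 ± 3.58 in Eμ-Myc, and its call (adjusted p 0.0372) was lost without a filter (0.0532), with the replicate block (0.0583) and without any 1 of WT library 2 (0.0889), WT library 3 (0.0985), or Eμ-Myc library 2 (0.0638), 3 (0.0655) or 4 (0.0859).

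Most genes of nucleotide synthesis rose. Of 11 tested genes of de novo purine synthesis 9 rose (81.8%, beside 29.2% of all tested genes), none fell, and the median log2 fold change was 1.53, against -0.04 over all genes. Ppat, which commits phosphoribosyl pyrophosphate to the purine pathway, was at 19.3, 26.1, 23.6 and 24.1 in WT libraries 1 to 4 and 62.8, 53.9, 81.4 and 82.5 in Eμ-Myc libraries 1 to 4. Paics, which carries out middle steps, was at 582, 670.5, 633 and 603 in WT libraries 1 to 4 and 1749, 1746, 2111 and 2299 in Eμ-Myc libraries 1 to 4, and Impdh2, which opens the branch to GTP, was at 122, 143, 123 and 133 in WT libraries 1 to 4 and 352, 456, 405 and 445 in Eμ-Myc libraries 1 to 4. For all 3 every Eμ-Myc library lay above every WT library, and the log2 fold changes were 1.56, 1.66 and 1.66 (limma adjusted p 5.31e-05, 6.51e-06 and 5.03e-06). The members not called were Impdh1, the other gene for the first enzyme of the GTP branch, at 116 ± 42.7 in WT and 125 ± 7.33 in Eμ-Myc, and Adssl1, at 47.3 ± 20.6 in WT and 38.9 ± 9.55 in Eμ-Myc.

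Of 25 tested genes of pyrimidine and deoxynucleotide synthesis 18 rose (72%, beside 29.2% of all tested genes). Another 5 fell (20%, under the 26.1% of all tested genes), and the median was 1.64. Rrm2, the regulated subunit of ribonucleotide reductase, rose from 39.9 ± 14.5 to 294 ± 34.3 (log2 fold change 2.92, SE 0.21, adjusted p 7.15e-06). Tyms, thymidylate synthase, was at 19.4, 11.4, 9.47 and 12.7 in WT libraries 1 to 4 and 68.2, 89, 91.7 and 100.2 in Eμ-Myc libraries 1 to 4, and Cad, which starts pyrimidine synthesis, rose from 69.4 ± 10.2 to 239 ± 47.6 (log2 fold changes 2.71 and 1.76, limma adjusted p 1.07e-05 and 3.38e-05). Dctpp1, a nucleotide pool cleaning pyrophosphatase, had the second largest increase of the list at 2.72. Single genes that fell included Tk2, a mitochondrial salvage kinase, at 190.3 ± 22.1 in WT and 93.4 ± 14.5 in Eμ-Myc (log2 fold change -1.03), Dguok (-0.42), another such kinase, and Samhd1 (-0.65), which breaks deoxynucleotides down. Tk1, the cytosolic thymidine kinase, rose by 1.58.

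Most one-carbon genes, which supply nucleotide synthesis, rose too. Of 19 tested 15 were higher (78.9%) and 2 lower (10.5%), beside 29.2% and 26.1% of all tested genes, with a median of 0.97. Shmt1, the cytosolic serine hydroxymethyltransferase, was at 8.77, 10.6, 12.4 and 11.4 in WT libraries 1 to 4 and 95.8, 106, 119 and 130.3 in Eμ-Myc libraries 1 to 4, with the groups apart, and changed by 3.33 (SE 0.14, limma adjusted p 1.78e-06). Shmt2, its mitochondrial form, rose from 155 ± 16.7 to 662 ± 55.2, and Phgdh, the first enzyme of serine synthesis, from 72.5 ± 10.1 to 326 ± 53.1 (log2 fold changes 2.09 and 2.16). In polyamine metabolism 10 of 14 tested genes rose (71.4%; 7 genes in the fit of all 12 libraries) and 1 fell, Sat1, which acetylates spermidine and spermine (adjusted p 0.024; 0.0548 without Eμ-Myc library 4, 0.0691 without WT libraries 1 and 4 and 0.0850 in the fit of all 12 libraries). Odc1, the rate-limiting enzyme, changed by 1.59, and the spermidine and spermine synthases Srm and Sms by 2.49 and 0.72 (limma adjusted p 4.32e-05, 2.09e-06 and 0.000965).

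Promoter sequence was read for these lists because their members moved together and Myc is known to bind the E-box. Windows of 300 bases, 250 before and 50 after the start site, came from RefSeq (GRCm38.p6, the mm10 build), and 9807 of the 12723 tested genes had at least 1. A gene with several windows was counted when any of them held the letters, and 7786 genes had only 1 window. The letters CACGTG, a palindrome and so the same on both strands, stood before the start site in 9 of 85 members of the nucleolar, purine, pyrimidine, one-carbon and polyamine lists that were called higher and had a window (10.6%), and in 982 of all 9807 genes (10%). Stretches of 60 bases are given here, 5′ to 3′ in the direction of the gene with the motif in capitals, for the 4 of these 9 genes with the highest coverage and for the 2 others, Sms and Tyms, that the lists name in any case.
Paics: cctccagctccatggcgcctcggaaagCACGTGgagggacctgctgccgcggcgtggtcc
Nme1: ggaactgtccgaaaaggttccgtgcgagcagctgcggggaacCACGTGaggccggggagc
Impdh2: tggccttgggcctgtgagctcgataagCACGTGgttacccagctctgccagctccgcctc
Atic: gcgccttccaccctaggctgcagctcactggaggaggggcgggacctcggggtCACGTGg
Sms: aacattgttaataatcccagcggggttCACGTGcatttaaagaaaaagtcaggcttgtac
Tyms: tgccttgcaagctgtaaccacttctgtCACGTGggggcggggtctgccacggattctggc
The stretches lie at chr5:76951072-76951131 on the plus strand (Paics), chr11:93968273-93968332 on the minus strand (Nme1), chr9:108560299-108560358 on the plus strand (Impdh2), chr1:71557096-71557155 on the plus strand (Atic), chrX:157492451-157492510 on the minus strand (Sms) and chr5:30073654-30073713 on the minus strand (Tyms). The first base of the motif lay 203 bases before the start of Paics, 110 before that of Impdh2, 18 before that of Nme1, 7 before that of Atic, 196 before that of Sms and 61 before that of Tyms. Nme1, a nucleoside diphosphate kinase, rose from 147 ± 13.5 to 492 ± 87.5 and Atic, which ends purine synthesis, from 90.2 ± 10.3 to 277 ± 32. The share of members with the motif before the start was close to that of all genes, and a match describes the letters of the window only.

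Genes of ribosome production were widely raised. All 45 tested nucleolar ribosome biogenesis genes were higher in Eμ-Myc, beside 29.2% of all tested genes, with a median of 1.23. Without WT libraries 1 and 4, 44 were higher. Npm1, nucleophosmin, was at 1759, 1607, 1698 and 2269.8 in WT libraries 1 to 4 and 4675, 5347, 5949 and 6218 in Eμ-Myc libraries 1 to 4. Ncl, nucleolin, was at 171, 186, 176 and 201 in WT libraries 1 to 4 and 459.96, 455, 523 and 549.5 in Eμ-Myc libraries 1 to 4. Fbl, the fibrillarin that methylates ribosomal RNA, rose from 162 ± 18.1 to 457 ± 56.8. The groups of all 3 were apart, with log2 fold changes of 1.602, 1.43 and 1.49 (limma adjusted p 1.86e-05, 6.95e-06 and 1.54e-05). The largest increases of the list were those of Gnl3 (2.002), the nucleolar GTPase nucleostemin, and Nhp2 (1.97), a protein of the pseudouridylation particles. The E-box stood anywhere in the 300-base window in 10 of 39 of these genes (25.6%) and in 11.9% of all 9807. That share was 30% for purine synthesis, 16.7% for DNA replication and 10% for cytosolic ribosomal proteins. It was 8.33% for the respiratory chain, 8.33% for mitosis and 7.35% for mitochondrial ribosomal proteins. Among those counted with the motif before the start site the nucleolar genes were Nop2 and Imp4.

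RNA polymerases I and III, which make ribosomal and transfer RNA, had 16 of 24 tested genes higher (66.7%, beside 29.2% of all tested genes) and none lower (median 0.53). The number higher was 12 in the fit of all 12 libraries, and with scaling by total coverage 13 were higher and 2 lower. Polr1b, a large subunit of polymerase I, rose from 18.7 ± 3.01 to 54.2 ± 8.14 (limma adjusted p 5.24e-05), and the largest subunit Polr1a from 24.8 ± 2.61 to 48.7 ± 9.37 (0.000854). Of the cytosolic ribosomal proteins 61 of 81 tested rose (75.3%) and none fell, with a median of 0.46, or 0.30 with scaling by total coverage. Rpl3 changed by 0.64 and Rps6 by 0.52. The largest change belonged to Rps27l (1.701), a ribosomal protein paralog known as a p53 target, which rose from 499 ± 105 to 1622 ± 314. The number called was 48 without WT libraries 1 and 4, 44 without Eμ-Myc library 4, 46 in the fit of all 12 libraries and 48 with scaling by total coverage, and for these genes reads shared with processed pseudogenes leave single values uncertain.

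Translation and protein folding genes followed. Translation factors were higher in 43 of 49 tested genes (87.8%, beside 29.2% of all tested genes) and lower in 1, with a median of 0.81. Eif4e, the cap-binding factor, rose from 47.4 ± 2.27 to 104 ± 12.4, Eif4a1, the helicase that works with it, from 763 ± 49.8 to 1653 ± 158, and Eif5a, which needs a polyamine-derived residue, from 4059.5 ± 287 to 10951 ± 1371, the last among the most strongly covered genes that rose. The gene that fell was Pdcd4, an inhibitor of Eif4a1, at 521, 476, 450.03 and 735 in WT and 375, 319.5, 278 and 306 in Eμ-Myc (log2 fold change -0.75, SE 0.16, adjusted p 0.00378; adjusted p 0.0602 in the fit of all 12 libraries). All 22 cytosolic aminoacyl-tRNA synthetase genes tested rose (median 0.86), led by Aimp2 (1.43), a scaffold of the synthetase complex, and Gars (1.31). Of 14 chaperonin genes 13 rose and none fell (1 did with scaling by total coverage, the replicate block or library weights, or without Eμ-Myc library 2; median 1.102), with Cct3 at 173, 206, 186 and 196 in WT and 454, 563, 567 and 608 in Eμ-Myc (log2 fold change 1.52, SE 0.11, adjusted p 8.81e-06).

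Of 25 tested heat shock chaperones 18 rose (72%, beside 29.2% of all tested genes) and none fell, with a median of 0.98, while 1 fell in the fit of all 12 libraries, with scaling by total coverage and without Eμ-Myc library 3. Bag2, a cochaperone of Hsp70, was at 3.61, 2.72, 2.66 and 2.92 in WT libraries 1 to 4 and 27.7, 31.7, 34.5 and 37.1 in Eμ-Myc libraries 1 to 4, the largest called increase of the list (log2 fold change 3.26, limma adjusted p 1.98e-06). Hspd1, the mitochondrial Hsp60, rose from 259.7 ± 23.2 to 946 ± 124, and Hsp90ab1, a constitutive Hsp90, from 1346 ± 283 to 2619.9 ± 155. Hspa1a and Hspa1b, near-identical inducible Hsp70 genes that can share reads, were not called. Hspa1b was at 544, 2.33, 4.05 and 936 in WT libraries 1 to 4 and 405, 495, 315 and 214 in Eμ-Myc libraries 1 to 4 (limma adjusted p 0.231), so WT libraries 2 and 3 were far below the rest, and without WT libraries 1 and 4 it was called higher by 6.57 (1.22e-05).

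Mitochondrial genes rose on a wide front. Of 24 tested genes of the tricarboxylic acid cycle 23 rose (95.8%, median 0.82) and of 72 nuclear-encoded respiratory chain genes 68 (94.4%, 0.86). Of 77 mitochondrial ribosomal protein genes 74 rose (96.1%, 0.97) and of 29 mitochondrial import genes 28 (96.6%, 0.89), beside 29.2% of all tested genes. None of these 4 lists had a member that fell, beside 26.1% of all tested genes. Idh2 and Idh3a, isocitrate dehydrogenases, rose from 60.1 ± 4.42 to 157 ± 13.4 and from 50.2 ± 3.02 to 124 ± 9.89. Ndufa12, a complex I subunit, rose from 92.2 ± 7.74 to 281 ± 43.4, and Uqcrc1, a core subunit of complex III, from 214 ± 14 to 378 ± 48.4. Mrpl12 had the largest change of its list at 1.80, with 266, 443, 435 and 445 in the Eμ-Myc libraries, of which the first was low. C1qbp, a mitochondrial matrix protein, rose from 154 ± 14.8 to 565 ± 48.7 (log2 fold change 1.88, SE 0.11, adjusted p 3.03e-06), and Tomm40, the import pore, from 143 ± 12 to 379.9 ± 43.1. Ogdh, of the oxoglutarate dehydrogenase complex, was the tricarboxylic acid cycle gene not called, at 594 ± 28.6 in WT and 663 ± 78.3 in Eμ-Myc (adjusted p 0.265; 0.0411 without Eμ-Myc library 2).

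In glycolysis 10 of 26 tested genes rose and 6 fell (10 with scaling by total coverage), which is 38.5% and 23.1% beside 29.2% and 26.1% of all tested genes. The median was -0.08, and its sign differed between settings, from -0.23 with scaling by total coverage to 0.11 with a filter at a mean of 10, and it was positive without WT library 1 (0.03) or Eμ-Myc library 2 (0.04). Ldha, lactate dehydrogenase, was at 1323, 970.3, 898 and 1112 in WT libraries 1 to 4 and 2341, 3149.7, 3273 and 3381 in Eμ-Myc libraries 1 to 4 and rose (log2 fold change 1.497, SE 0.16, adjusted p 5.62e-05). Slc16a1, a lactate transporter, rose from 12.1 ± 2.68 to 102 ± 15.2 and Tpi1, triosephosphate isomerase, from 149 ± 23.6 to 471 ± 62.5 (log2 fold changes 3.04 and 1.67). Txnip, which restrains glucose uptake, fell from 1219 ± 238 to 519.5 ± 92.5 (log2 fold change -1.23, SE 0.17, adjusted p 0.000232). Hk2, hexokinase 2, was at 23.9, 11.2, 11.9 and 11.2 in WT, where library 1 stood high, and at 22, 20.5, 21.9 and 20.1 in Eμ-Myc. It was not called (limma adjusted p 0.0518), but was called without WT library 1 (0.000625). Pkm, pyruvate kinase, was called (adjusted p 0.024) with overlapping groups, 1458, 839.6, 786 and 927 in WT and 1256, 1521, 1526 and 1540.4 in Eμ-Myc, and its call was lost without WT library 2 (0.0618) or 3 (0.0659), or Eμ-Myc library 2 (0.0553), 3 (0.0598) or 4 (0.0593), with the replicate block (0.0506) and in the fit of all 12 libraries (0.103).

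Among amino acid transporters 10 of 23 tested rose (43.5%, beside 29.2% of all tested genes) and 2 fell. The median of 0.43 was 0.28 with scaling by total coverage and 0.23 without Eμ-Myc library 3. Slc7a5, the leucine carrier, rose from 18.6 ± 3.49 to 85.9 ± 16.6, and its partner chain Slc3a2 from 152 ± 10.9 to 198 ± 18.5 (log2 fold changes 2.18 and 0.38; Slc3a2 had an adjusted p of 0.0720 in the fit of all 12 libraries). Slc1a5, a glutamine carrier, changed by 1.08 (limma adjusted p 6.28e-05). In branched-chain amino acid breakdown 12 of 19 rose (63.2%) and 1 fell. Bcat1, the cytosolic branched-chain aminotransferase, was at 0.492, 0.874, 0.79 and 0.701 in WT libraries 1 to 4 and 48.3, 46.1, 55.4 and 66 in Eμ-Myc libraries 1 to 4. It was under 1 in every WT library and had the largest increase of any gene with a mean of at least 8, while its mitochondrial counterpart Bcat2 was at 113 ± 6.96 in WT and 120.3 ± 18.7 in Eμ-Myc and was not called (adjusted p 0.611).

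In cholesterol and fatty acid synthesis 10 of 33 tested genes rose and 8 fell, shares of 30.3% and 24.2% that were near the 29.2% and 26.1% of all tested genes, and the median of 0.13 was -0.02 with scaling by total coverage and 0.05 without WT library 4. Fasn, fatty acid synthase, and Elovl6, an elongase, rose from 26.9 ± 4.51 to 60.1 ± 8.22 and from 4.21 ± 1.48 to 17.7 ± 2.18, while Scd1, a desaturase, fell from 266 ± 90.04 to 126 ± 20.8 (limma adjusted p 0.000207, 9.28e-05 and 0.00564). Of 17 iron genes 4 rose (23.5%, under the 29.2% of all tested genes) and none fell (1 did with scaling by total coverage or library weights). Tfrc, the transferrin receptor, was at 61.2, 59, 60.7 and 69.98 in WT libraries 1 to 4 and 236, 185, 271 and 275 in Eμ-Myc libraries 1 to 4, with the groups apart, and Steap3, an iron reductase, rose from 9.85 ± 3.74 to 55.8 ± 6.68 (log2 fold changes 1.92 and 2.50). The ferritin chains Fth1 and Ftl1 were at 2580.1 ± 325 in WT and 2358 ± 320.3 in Eμ-Myc, and at 1759.97 ± 231 in WT and 1496 ± 309.5 in Eμ-Myc, and neither was called (adjusted p 0.42 and 0.22).

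**Figure D3:**
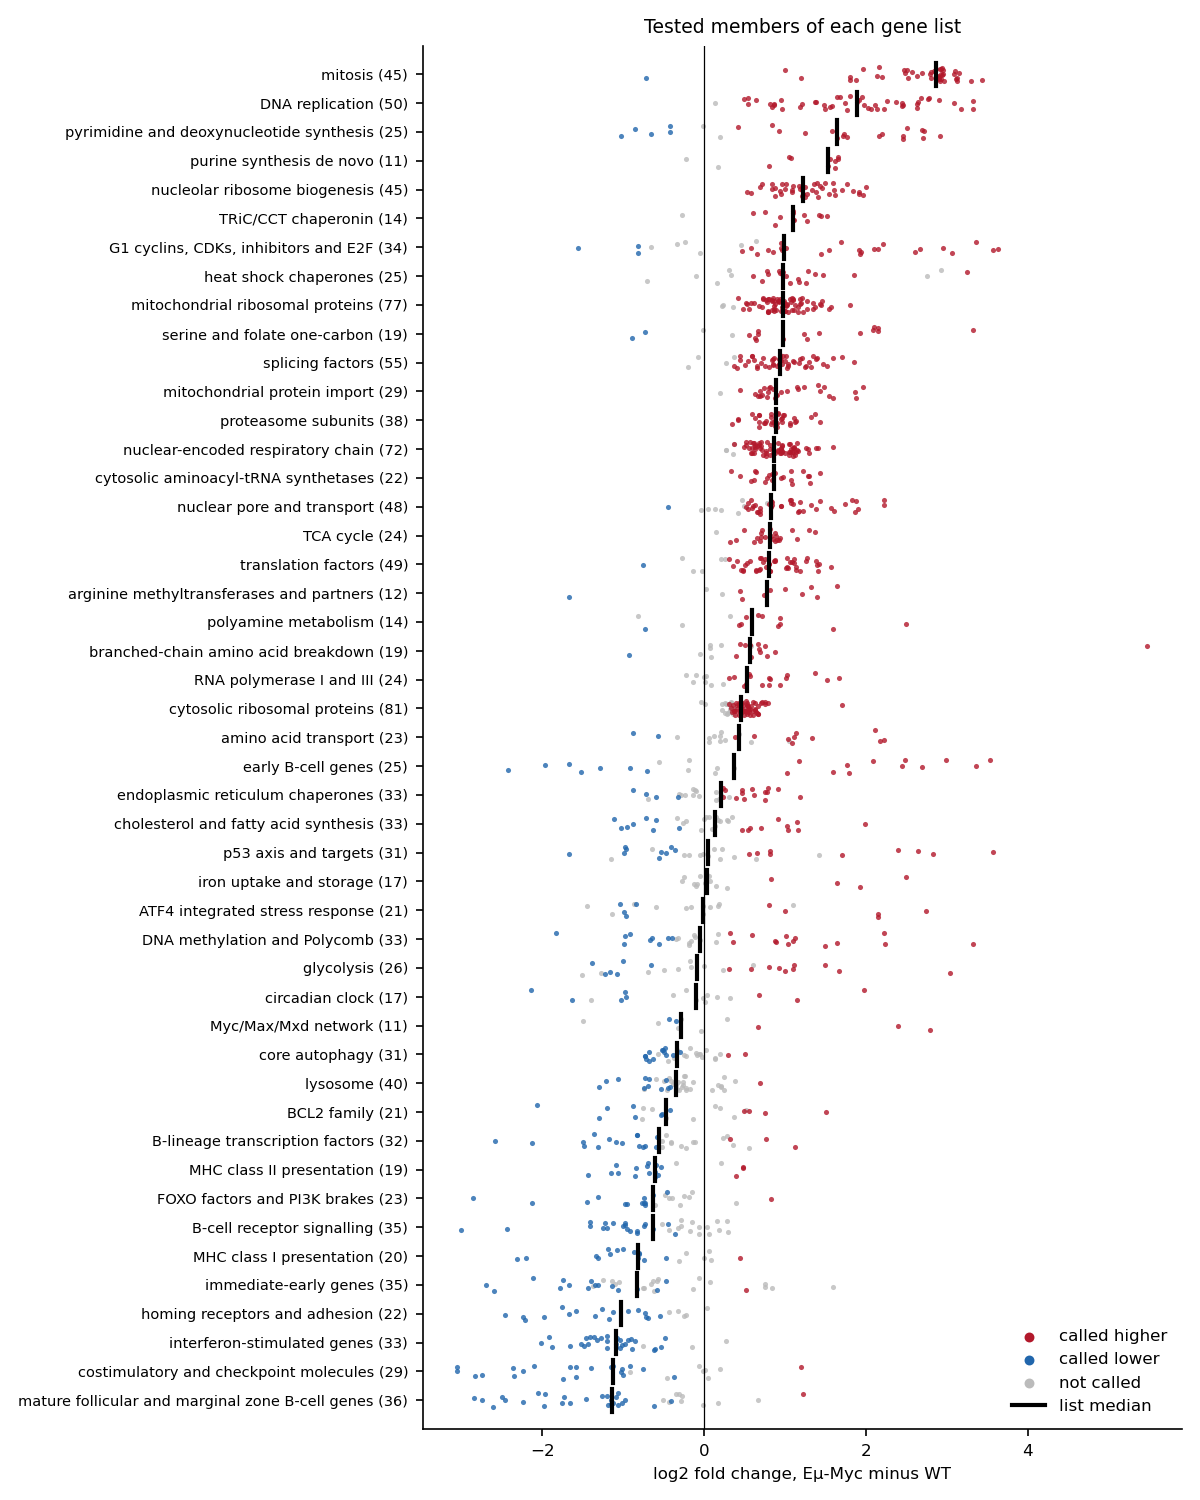
Log2 fold change, Eμ-Myc minus WT (horizontal axis), of the tested members of the 47 gene lists, one row per list with the number tested in brackets, ordered by the list median (black bar). Red points were called higher, blue points lower and grey points neither; mitosis has the highest median, 2.87, and mature follicular and marginal zone B-cell genes the lowest, -1.14.

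Mitosis and DNA replication had the largest medians of the 47 lists. Of 45 tested mitosis genes 44 rose, with a median of 2.87, and of 50 DNA replication genes 49 rose (98%, beside 29.2% of all tested genes), with a median of 1.89. Mki67, the proliferation marker Ki-67, was at 30.6, 13, 23 and 18 in WT libraries 1 to 4 and 143, 100.2, 184 and 229.8 in Eμ-Myc libraries 1 to 4. Ccnb1, cyclin B1, was at 18, 7.48, 8.29 and 8.64 in WT libraries 1 to 4 and 90.9, 91.1, 135 and 141 in Eμ-Myc libraries 1 to 4. Both had all Eμ-Myc libraries above all WT libraries, with log2 fold changes of 2.93 and 3.43 (SE 0.31 and 0.28, limma adjusted p 6.86e-05 and 1.64e-05). Aurkb, a mitotic kinase, rose from 22.8 ± 5.92 to 164 ± 18.2. The mitosis gene that fell was Pttg1, securin, at 130.2, 97.4, 86.8 and 118 in WT and 60.4, 87.7, 60.1 and 54.5 in Eμ-Myc, with overlapping groups (adjusted p 0.00682; 0.0567 without WT libraries 1 and 4).

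Mcm2 of the replicative helicase rose from 49.5 ± 3.09 to 197 ± 23.9, the sliding clamp Pcna from 211 ± 7.71 to 790.1 ± 113, and the loading factor Cdc6 from 17.1 ± 5.46 to 153 ± 11.4 (log2 fold changes 1.97, 1.89 and 3.18). The largest changes of the replication list were those of Mcm10 and Uhrf1, which rose by 3.32 and 3.32. In the list of G1 cyclins, kinases, inhibitors and E2F factors 25 of 34 tested rose (73.5%, beside 29.2% of all tested genes) and 3 fell (8.82%, under the 26.1% of all tested genes, and 5 genes with scaling by total coverage). The median was 0.99. Cdk4 rose from 307 ± 20.9 to 1000.04 ± 122 (log2 fold change 1.69, SE 0.11, adjusted p 5.2e-06). Ccnd2, the D cyclin of resting and stimulated B cells, was at 57.8, 65.1, 72.2 and 91.4 in WT libraries 1 to 4 and 30.2, 18.7, 26 and 21.3 in Eμ-Myc libraries 1 to 4 and was 1 of the 3 that fell (log2 fold change -1.56, SE 0.18, adjusted p 0.000106), as was Rbl2, the retinoblastoma relative p130 (-0.82).

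Of 31 tested genes of the p53 axis 9 rose and 9 fell (29% each, beside 29.2% and 26.1% of all tested genes), and the median of 0.05 was -0.08 with scaling by total coverage, 0.02 without Eμ-Myc library 1 and 0.14 without Eμ-Myc library 2. The split was 12 higher and 5 lower without WT libraries 1 and 4, and the number lower was 5 in the fit of all 12 libraries (16.1%, beside 20% of all tested genes in that fit), 5 without Eμ-Myc library 2 or 3 and 4 without Eμ-Myc library 4. Cdkn2a, whose locus encodes p16 and p19Arf, which share exons that per-gene coverage does not separate, was at 1.97, 2.62, 2.86 and 1.52 in WT libraries 1 to 4 and 23.8, 36.1, 33.7 and 33.5 in Eμ-Myc libraries 1 to 4. The groups were far apart (log2 fold change 3.57, SE 0.21, adjusted p 3.41e-06). Trp53 itself rose from 349 ± 35.2 to 611 ± 49.3 (limma adjusted p 0.000223). Among its targets Cdkn1a, which encodes p21, was at 38.7, 21, 15.7 and 15.9 in WT and 27.9, 35.3, 41.2 and 30.6 in Eμ-Myc and was not called (adjusted p 0.0727; 0.00241 without WT library 1, which held the highest WT value). Mdm2, which degrades p53, was at 132 ± 17.6 in WT and 102 ± 9.93 in Eμ-Myc, and its call (adjusted p 0.0284) was lost without WT library 1 (0.0702) or 4 (0.0688), or Eμ-Myc library 3 (0.0745) or 4 (0.0824), with an adjusted p of 0.215 without both of those WT libraries. Fas, a death receptor, fell from 25.2 ± 11 to 7.44 ± 3.02 (log2 fold change -1.68, SE 0.33, adjusted p 0.00231). Gtse1, a member that is also a cell cycle gene, rose by 2.83.

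Genes of the proteasome, splicing and nuclear transport rose widely. All 38 tested proteasome subunits were higher (median 0.88), as were 51 of 55 splicing factors (92.7%, median 0.93) and 39 of 48 nuclear pore and transport genes (81.2%, median 0.83), beside 29.2% of all tested genes. Psmd1, a regulatory particle subunit, rose from 72.2 ± 5.42 to 158 ± 15.4, Snrpd1, an Sm core protein, from 107 ± 3.13 to 395 ± 73.2, and Rcc1, which drives nuclear transport, from 71.3 ± 1.72 to 338 ± 51.7. Prmt5, which methylates Sm proteins, was at 128, 149, 135 and 161 in WT libraries 1 to 4 and 387, 444, 472 and 497 in Eμ-Myc libraries 1 to 4, with the groups apart (log2 fold change 1.65, SE 0.11, adjusted p 6.23e-06), and its partner Wdr77 rose by 0.74. Prmt2 fell from 45.4 ± 4.45 to 14.1 ± 2.28, the gene that fell among the 12 arginine methyltransferases and partners, of which 9 rose.

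Of 33 tested DNA methylation and Polycomb genes 14 were higher (42.4%, beside 29.2% of all tested genes) and 9 lower (27.3%, near the 26.1% of all tested genes). The median of -0.05 ran from -0.20 to 0.14 between settings and was 0.06 without Eμ-Myc library 2. Ezh2, the Polycomb methyltransferase, was at 91.9, 80.8, 81 and 95.1 in WT libraries 1 to 4 and 367, 389, 429 and 447 in Eμ-Myc libraries 1 to 4, and Dnmt1, the maintenance DNA methyltransferase, rose from 235 ± 17.8 to 743 ± 143 (log2 fold changes 2.22 and 1.64, limma adjusted p 1.98e-06 and 2.4e-05). Within the chromobox family Cbx2 rose by 2.23 and Cbx7 fell from 124 ± 20.6 to 34.5 ± 6.59 (log2 fold change -1.83, SE 0.17, adjusted p 2.82e-05). Tet2, which oxidises methylcytosine, fell from 22.1 ± 2.34 to 11 ± 2.44.

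Of 25 tested early B-cell genes 12 rose (48%, beside 29.2% of all tested genes) and 7 fell (28%, near the 26.1% of all tested genes), with a median of 0.37 that ran from -0.02 to 0.90 between settings (0.73 without WT library 1 and 0.21 without Eμ-Myc library 4), and 4 fell in the fit of all 12 libraries. Rag1, which cuts antigen receptor genes, was at 1.56, 3.59, 3.16 and 3.86 in WT libraries 1 to 4 and 29.6, 18.6, 26.7 and 34 in Eμ-Myc libraries 1 to 4. Igll1 and Vpreb1, the surrogate light chain, were low in all libraries, at 0.656, 0.291, 0.296 and 1.29 in WT and 2.29, 3.7, 8.49 and 11.4 in Eμ-Myc, and at 0.656, 0.777, 0.395 and 1.4 in WT and 2.77, 3.24, 6.29 and 9.31 in Eμ-Myc. Every Eμ-Myc library was above every WT library for all 3 (log2 fold changes 2.99, 2.48 and 2.08, limma adjusted p 2.66e-05, 0.00195 and 0.00143), and Eμ-Myc libraries 3 and 4 held more surrogate light chain than libraries 1 and 2. Other risers included Sox4 (from 18.9 ± 3.2 to 105 ± 17), a progenitor transcription factor, Myb (from 80.6 ± 23 to 239 ± 21.6) and Vpreb3 (from 454 ± 201 to 1473 ± 325). Il7r, the interleukin 7 receptor of B-cell progenitors that T cells also carry, was at 128, 48.1, 76.5 and 395 in WT and fell (log2 fold change -2.42, SE 0.55, adjusted p 0.00547), with its highest value in WT library 4, as for the T-cell markers. Dntt, the terminal transferase of progenitors, was at 7.66 ± 4.64 in WT and 8.13 ± 3.27 in Eμ-Myc and was not called.

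Most mature follicular and marginal zone genes fell: 26 of 36 tested were lower (72.2%, beside 26.1% of all tested genes) and 1 higher, with a median of -1.14. Fcer2a, the low-affinity IgE receptor CD23, was at 1779, 3347, 3101 and 1902 in WT libraries 1 to 4 and 649.6, 418, 285 and 325 in Eμ-Myc libraries 1 to 4. Cr2, the complement receptor CD21, was at 114, 179, 193 and 84 in WT libraries 1 to 4 and 43.4, 20.5, 15.9 and 21.4 in Eμ-Myc libraries 1 to 4. Cd200, an inhibitory surface ligand, was at 61.7, 92.6, 76.7 and 75.1 in WT libraries 1 to 4 and 11.9, 10.6, 9.53 and 11.3 in Eμ-Myc libraries 1 to 4. The groups of all 3 were apart, with log2 fold changes of -2.61, -2.50 and -2.75 (limma adjusted p 0.000111, 0.000425 and 2.16e-06). Gpr174, a lysophosphatidylserine receptor, fell from 146 ± 26.4 to 20.4 ± 7.15, and Cd22, an inhibitory coreceptor, from 1271 ± 406 to 625 ± 81.5. Without WT libraries 1 and 4, which held less Fcer2a and Cr2 than the other WT libraries, 32 of these genes were lower, with a median of -1.48. In the fit of all 12 libraries 14 were lower, and Fcer2a, Cr2 and Gpr174, with log2 fold changes of -2.64, -2.52 and -2.88 there, were not called (adjusted p 0.209, 0.151 and 0.0652).

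B-cell receptor signalling genes were lower in 20 of 35 tested (57.1%, beside 26.1% of all tested genes) and higher in none (median -0.63). The number lower was 24 without WT libraries 1 and 4 and 16 in the fit of all 12 libraries. The receptor's own signalling chains were not called: Cd79a was at 1759 ± 537 in WT and 1627 ± 178 in Eμ-Myc (limma adjusted p 0.786) and Cd79b at 3191 ± 1103 in WT and 3218 ± 508 in Eμ-Myc. Against WT libraries 2 and 3 alone Cd79a was called lower, by 0.44 (0.0363). The kinase Syk was at 654 ± 166 in WT and 654 ± 63 in Eμ-Myc and was not called. Rasgrp3, which couples the receptor to Ras, fell from 179 ± 47.6 to 32.5 ± 9.46 (log2 fold change -2.44, SE 0.23, adjusted p 3.76e-05; 0.0690 in the fit of all 12 libraries). Cd5, a negative regulator that T cells carry as well, was at 44.7, 25.6, 32.5 and 184 in WT and 7.06, 4.81, 7.33 and 5.07 in Eμ-Myc, and its WT values had the order of the T-cell markers (adjusted p 0.00172; 0.0603 in the fit of all 12 libraries).

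Of 32 B-lineage transcription factors 3 rose and 16 fell, or 9.38% and 50% beside 29.2% and 26.1% of all tested genes (median -0.55). The lineage-defining factors Pax5 and Ebf1 were at 120.2, 250.2, 251 and 122 in WT libraries 1 to 4 and 165, 137, 157 and 178 in Eμ-Myc libraries 1 to 4, and at 663, 1216, 976 and 579 in WT libraries 1 to 4 and 937, 1006, 918 and 994 in Eμ-Myc libraries 1 to 4, so WT libraries 1 and 4 were the lowest and WT library 2 or 3 the highest, and neither was called (limma adjusted p 0.677 and 0.382). Without WT libraries 1 and 4 Pax5 was called lower (log2 fold change -0.66, adjusted p 0.00399). Tcf3, which encodes E12 and E47, rose from 1169 ± 264 to 2509 ± 179.7, and Pou2af1, an octamer coactivator, from 359 ± 93.7 to 598 ± 68.8. Bcl6, the germinal centre repressor, fell from 86.5 ± 21.2 to 19.8 ± 6.86 (log2 fold change -2.13, SE 0.27, adjusted p 0.000193; 0.0502 in the fit of all 12 libraries), and Foxo1 from 111 ± 24.7 to 43.2 ± 2.31 (log2 fold change -1.32, SE 0.16, adjusted p 0.000147).

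**Figure D4:**
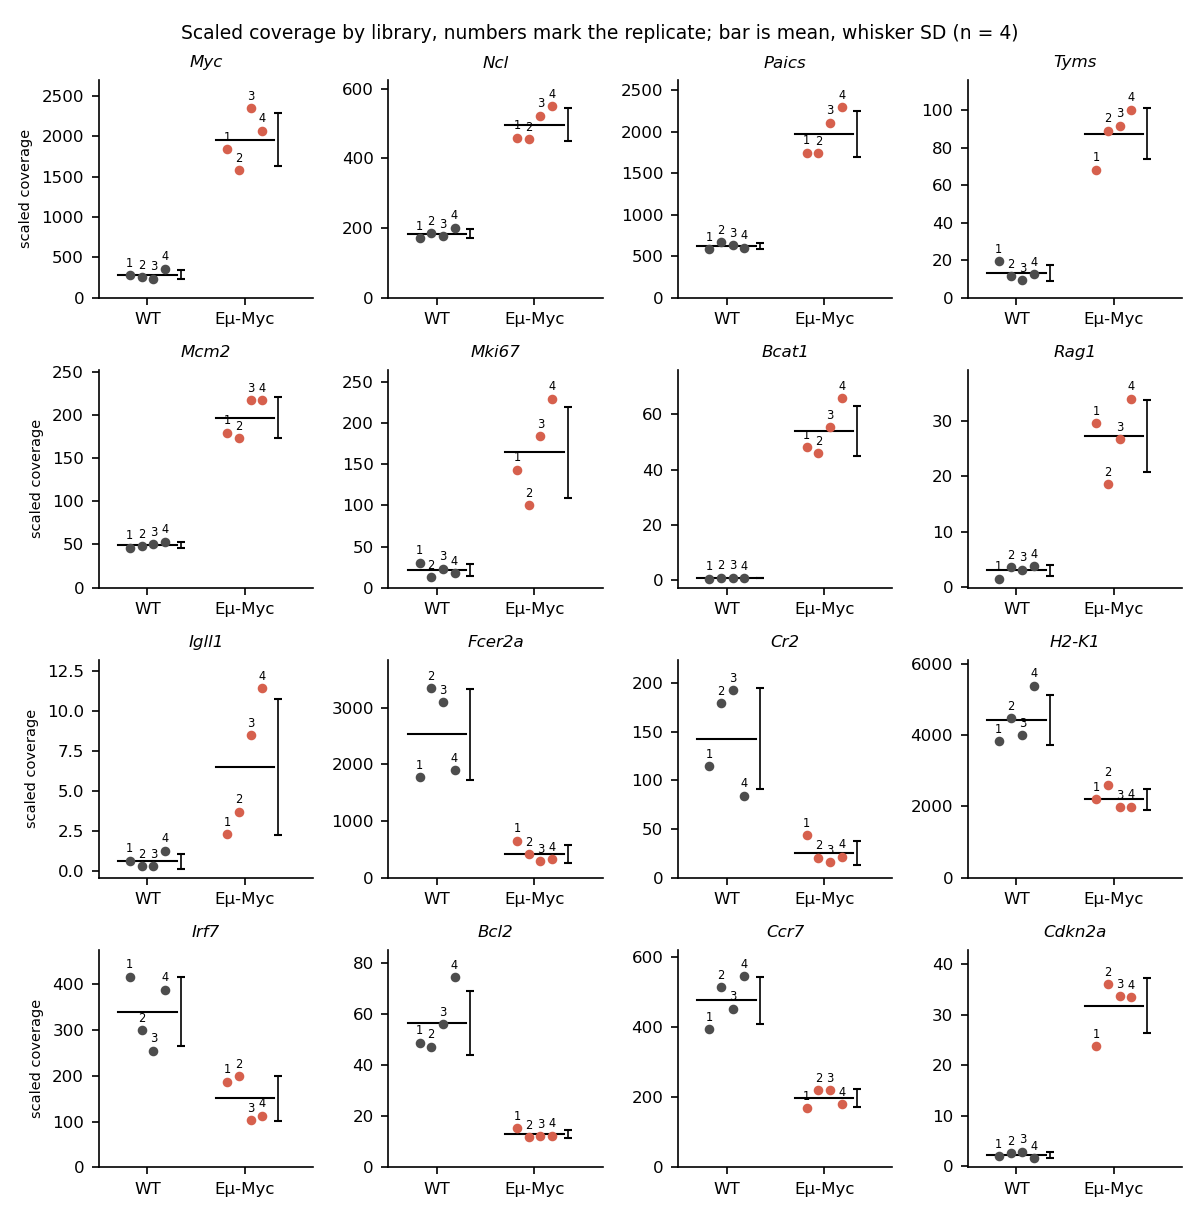
Scaled coverage (vertical axes, one scale per gene) of 16 genes in each WT and Eμ-Myc library. Points carry the replicate number, bars are means and whiskers SD over 4 libraries; in every panel the 4 Eμ-Myc libraries lie wholly above or wholly below the 4 WT libraries.

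Most antigen presentation genes of both classes fell. Of 20 tested class I presentation genes 14 were lower (70%, beside 26.1% of all tested genes) and 1, Erap1, higher (median -0.81). The call of Erap1, an aminopeptidase that trims peptides, had an adjusted p of 0.0478 with overlapping groups. It was lost in 7 of the 8 fits without 1 library (0.0511 to 0.130), all but that without Eμ-Myc library 2, in the fit of all 12 libraries (0.0769), without a filter (0.0630) and with scaling by total coverage (0.221). H2-K1, a classical class I heavy chain, was at 3817, 4462, 3988 and 5379 in WT libraries 1 to 4 and 2205, 2606, 1972 and 1989.7 in Eμ-Myc libraries 1 to 4, with the groups apart (log2 fold change -1.004, SE 0.14, adjusted p 0.000274). B2m, the shared light chain, fell from 2803 ± 303 to 2022 ± 254 (adjusted p 0.00804; 0.0507 without WT libraries 1 and 4), and Tap1, which moves peptides into the endoplasmic reticulum, from 465 ± 33.3 to 266 ± 13.7. H2-Q6 and H2-Q7, whose near-identical sequences can share reads, fell by 2.31 and 2.20. In the fit of all 12 libraries their log2 fold changes were -2.34 and -2.23 (adjusted p 0.0846 and 0.0620). Nlrc5, the class I transactivator, fell from 37 ± 11.8 to 15.9 ± 2.71. Members not called included Psmb8, Psmb9 and Psmb10, the immunoproteasome subunits (log2 fold changes -0.23, -0.31 and 0.001).

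Of 19 tested class II presentation genes 14 fell (73.7%, beside 26.1% of all tested genes) and 3 rose (median -0.61). Ciita, the class II transactivator, was at 420.1, 648, 719 and 319 in WT libraries 1 to 4 and 312, 168, 228 and 254 in Eμ-Myc libraries 1 to 4 (log2 fold change -1.09, SE 0.28, adjusted p 0.00911). Cd74, the invariant chain, fell from 11752 ± 2031 to 8103 ± 1223, and H2-Oa, a modulator of peptide loading in B cells, from 319 ± 99.7 to 140.2 ± 28 (limma adjusted p 0.0142 and 0.00268). H2-Ab1, a class II beta chain, was called lower (log2 fold change -0.59, adjusted p 0.0172), but not without Eμ-Myc library 3 (0.0531) or in the fit of all 12 libraries (0.0797). The members that rose were Nfya, Nfyb and Nfyc, subunits of the CCAAT-binding factor NF-Y. In the fit of all 12 libraries 4 of the 19 were lower (21.1%, near the 20% of all tested genes in that fit), and Cd74 (0.147) and H2-Oa (0.164) were not.

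Interferon-stimulated genes were lower in 30 of 33 tested (90.9%, beside 26.1% of all tested genes) and higher in none, with a median of -1.08. Irf7, the amplifier of the type I response, was at 416, 299.6, 255 and 388 in WT libraries 1 to 4 and 187, 199, 103 and 113 in Eμ-Myc libraries 1 to 4. All Eμ-Myc libraries were below all WT libraries (log2 fold change -1.20, limma adjusted p 0.00298), and Eμ-Myc libraries 3 and 4 were lower than 1 and 2. Ifit1, which binds foreign RNA, fell from 17.6 ± 3.11 to 4.05 ± 1.26. The numbers lower were 25 without WT libraries 1 and 4 and 18 in the fit of all 12 libraries, where Irf7 had an adjusted p of 0.0542 and Isg15 of 0.0632.

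Homing receptors and adhesion genes fell in 17 of 22 tested (77.3%, beside 26.1% of all tested genes) and rose in none (median -1.03), and 12 fell in the fit of all 12 libraries. Ccr7, which guides cells to T-cell zones, was at 394, 512, 452 and 545 in WT libraries 1 to 4 and 169, 219, 219 and 181 in Eμ-Myc libraries 1 to 4. S1pr1, which lets lymphocytes leave tissue, was at 139, 244, 227 and 236 in WT libraries 1 to 4 and 79.8, 64.3, 97 and 85.3 in Eμ-Myc libraries 1 to 4. Both had separate groups (log2 fold changes -1.27 and -1.35, limma adjusted p 6.37e-05 and 0.000383). Gpr183, the oxysterol receptor that positions B cells, fell from 54 ± 11.6 to 9.36 ± 2.07.

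Costimulatory and checkpoint molecules were lower in 21 of 29 tested (72.4%, beside 26.1% of all tested genes) and higher in 1 (median -1.13), and 12 were lower in the fit of all 12 libraries. Among the largest decreases were those of Cd28 and Cd27, receptors of T cells, at 15.3, 6.99, 11.8 and 53 and 149, 67.6, 89.6 and 399.8 in WT libraries 1 to 4, which is the order of the T-cell marker sums (Cd27 had an adjusted p of 0.0682 in the fit of all 12 libraries). Among molecules of B cells, Cd274, the ligand PD-L1, fell from 32.4 ± 2.09 to 16.4 ± 4.47 (log2 fold change -0.999, SE 0.18, adjusted p 0.00124, and 0.195 in the fit of all 12 libraries). Cd80 and Cd86 were not called (adjusted p 0.127 and 0.963). With the replicate block Cd80 was called lower (log2 fold change -0.46, limma adjusted p 0.0452). Slamf7 rose from 75.3 ± 14.7 to 173 ± 33.5.

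In the BCL2 family 8 of 21 tested genes fell (38.1%, beside 26.1% of all tested genes) and 4 rose (19%, under the 29.2% of all tested genes), with a median of -0.47, or -0.30 without WT library 1. With all 12 libraries in the fit 4 fell (19%, near the 20% of all tested genes in that fit). Bcl2, the founding inhibitor of cell death, was at 48.8, 47.2, 56.1 and 74.3 in WT libraries 1 to 4 and 15.3, 11.9, 12.2 and 12.4 in Eμ-Myc libraries 1 to 4, and fell with the groups apart (log2 fold change -2.07, SE 0.16, adjusted p 1.08e-05). Mcl1, another inhibitor, fell from 733 ± 104 to 395 ± 39.8 (log2 fold change -0.88, SE 0.13, adjusted p 0.000365). Of the genes that promote death, Bax rose from 185 ± 22.4 to 273 ± 43.6 (limma adjusted p 0.00705), and Bcl2l11, which encodes Bim, fell from 58 ± 3.83 to 43.4 ± 4.36 (0.00873; 0.0605 without WT libraries 1 and 4). Values of Bcl2a1a, Bcl2a1b and Bcl2a1d, near-identical copies that can share reads, are uncertain.

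FOXO factors and genes that restrain PI3 kinase fell in 13 of 23 tested (56.5%, beside 26.1% of all tested genes) and rose in 1 (median -0.63), and 9 fell in the fit of all 12 libraries. Foxo1 is given above, and the largest decrease, of Inpp4b (-2.86), had its highest value in WT library 4. Core autophagy genes fell in 13 of 31 and rose in 2, or 41.9% and 6.45% beside 26.1% and 29.2% of all tested genes. Without Eμ-Myc library 4, 8 fell, and their share of 25.8% was near the 21.5% of all tested genes in that fit. With all 12 libraries in the fit 10 fell and none rose. Among those that changed was Sqstm1, the cargo receptor p62, which went from 507 ± 28.3 to 317 ± 21.3 (log2 fold change -0.68, SE 0.09, adjusted p 0.000256). Lysosome genes fell in 11 of 40, a share of 27.5% that was near the 26.1% of all tested genes, and rose in 1 (median -0.34). The number lower was 20 of the lysosome genes without WT library 4, where 3152 of 12558 tested genes were lower. With scaling by total coverage it was 24, or 60%, beside 33.3% of all tested genes in that fit. Laptm5, a lysosomal protein of blood cells that lowers B-cell receptor levels, was at 843, 696, 739.7 and 815 in WT and 392, 353, 318 and 220.1 in Eμ-Myc (log2 fold change -1.30, SE 0.17, adjusted p 0.000208; 0.0687 in the fit of all 12 libraries). Lamp1 and Ctsd were not called. Tfeb, a transcription factor of lysosome genes, was not called either (adjusted p 0.0856), but was without WT library 4 (0.0168) or Eμ-Myc library 2 (0.0478), and without WT libraries 1 and 4 (0.0212). Tfeb was also called lower with scaling by total coverage (limma adjusted p 0.022), the replicate block (0.0289) and library weights (0.00148).

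The largest decreases among genes with separate groups were mostly genes of T cells. Of the 15 named by size, Cd8b1, Cd3e, Cd6, Cd247, Bcl11b, Themis, Lat, Skap1 and Izumo1r are among the T-cell genes, and the largest change was that of Dapl1 (log2 fold change -3.82). Cd3e, a chain of the T-cell receptor complex, was at 83.2, 41.4, 50.04 and 298 in WT libraries 1 to 4 and 9.54, 10.2, 7.96 and 7.19 in Eμ-Myc libraries 1 to 4, and Dapl1 at 47.1, 25.7, 36.6 and 177 in WT libraries 1 to 4 and 3.24, 2.31, 3.46 and 4.48 in Eμ-Myc libraries 1 to 4. In each of the 15 the highest library was WT library 4. Against WT libraries 2 and 3 alone the 18 T-cell markers were still all called lower, with a median of -2.21 in place of -3.06. In the fit of all 12 libraries 10 of the 18 were, and the calls of Cd3e (0.0590) and Cd8b1 (0.0677) were lost.

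The 15 largest increases held genes of many kinds. After Bcat1 came Uchl1, a deubiquitinase known from neurons, at 3.12, 6.9, 4.93 and 5.84 in WT libraries 1 to 4 and 148, 249, 165 and 201 in Eμ-Myc libraries 1 to 4 (log2 fold change 5.09, SE 0.24, adjusted p 1.98e-06). Hspa12b, a distant Hsp70 relative, was at 0.164, 0, 0.099 and 0.35 in WT and 17.5, 21.2, 18.2 and 21.2 in Eμ-Myc, and Ltbp4, a matrix protein that holds TGF-beta, at 0.492, 1.17, 1.09 and 1.52 in WT and 42.2, 41.4, 43.5 and 46.4 in Eμ-Myc. Eps8l2, Eml1, Fstl1 and Nav2 were near or under 1 in WT on average and at means of 21.4, 24.9, 19.9 and 22.6 in Eμ-Myc. Enzymes in the group were Ptgr1, a prostaglandin reductase (from 12 ± 7.12 to 231 ± 29.3), Alpl, tissue-nonspecific alkaline phosphatase (from 10.6 ± 4.14 to 199 ± 20.9), Nt5dc2 (from 6.56 ± 2.19 to 111 ± 14.5) and Dnph1, a nucleotide hydrolase described as a Myc target (from 3.09 ± 1.03 to 45.6 ± 8.41). Cdkn1c, the cell cycle inhibitor p57, rose from 2.82 ± 1.3 to 39.8 ± 10.9. The group was completed by Sapcd2 and Galnt14.

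Under 1 in all WT libraries and at least 4 in all Eμ-Myc libraries were 21 genes, and the reverse held for 2. The 21 held 5 of the 15 largest increases, Bcat1, Hspa12b, Eps8l2, Eml1 and Fstl1, and also Rag2, the partner of Rag1, at 0.246, 0.486, 0.197 and 0.467 in WT and 7.92, 9.53, 9.22 and 10.5 in Eμ-Myc, and Cth, which makes cysteine from cystathionine, at 0.082, 0.291, 0.296 and 0.35 in WT and 7.63, 7.03, 9.11 and 10.2 in Eμ-Myc. The 2 of the reverse set were Eya1, at 4.84, 7.58, 7.4 and 6.66 in WT and 0.763, 0.37, 0.943 and 0.353 in Eμ-Myc, and Rgs13, a regulator of chemokine receptors in germinal centres, at 5.49, 13, 14.9 and 5.26 in WT and 0.858, 0.278, 0.419 and 0.236 in Eμ-Myc.

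Among the most strongly covered genes with a change of at least 1, those on the rising side were Eif5a, Ptma (from 3856 ± 366 to 9243 ± 1075), which encodes prothymosin alpha, Npm1, Ldha, Atp5g3 (from 1233 ± 103 to 2737 ± 378), a subunit of ATP synthase, Tcf3, Ucp2 (from 1185 ± 106 to 2375 ± 135) and Anapc5 (from 995 ± 58 to 2287 ± 213). On the falling side Shisa5, an endoplasmic reticulum protein known as a p53 target, was at 9351, 11283, 10669.9 and 14079 in WT libraries 1 to 4 and 4173, 3869, 2721 and 2955 in Eμ-Myc libraries 1 to 4 (log2 fold change -1.73, SE 0.17, adjusted p 4.03e-05; 0.0809 in the fit of all 12 libraries). Ptprc, which encodes CD45, fell from 1857 ± 155 to 708 ± 147, Mef2c, a transcription factor of B cells, from 1618 ± 589 to 767 ± 103, and Gimap4, a lymphocyte GTPase, from 1722 ± 546 to 415 ± 92.5 (adjusted p 0.118 in the fit of all 12 libraries), with its highest value in WT library 4. H2-K1, Fcer2a, Adgre5 (-1.21) and Arhgap45 (-1.13) completed the list.

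Several immediate-early and inducible stress genes differed more within WT than between genotypes. Hspa1a, an inducible Hsp70, was at 362, 0.874, 1.18 and 594 in WT libraries 1 to 4 and 225, 295, 199.98 and 127 in Eμ-Myc libraries 1 to 4. Jun was at 669, 19.4, 19.4 and 970.2 in WT libraries 1 to 4 and 213, 162, 263 and 229 in Eμ-Myc libraries 1 to 4. Fosb was at 127, 3.59, 3.95 and 221 in WT libraries 1 to 4 and 49.4, 35.3, 259 and 91.1 in Eμ-Myc libraries 1 to 4. For each of the 3, WT libraries 2 and 3 were near the bottom and WT libraries 1 and 4 in or above the range of Eμ-Myc, and none was called (limma adjusted p 0.236, 0.638 and 0.349). Without WT libraries 1 and 4 they were called higher in Eμ-Myc by 7.06, 3.43 and 4.24. Of the 35 immediate-early genes 1 was called higher and 15 lower (42.9%, beside 26.1% of all tested genes) with all libraries. Without WT libraries 1 and 4, 7 were higher (20%, beside 28.2% of all tested genes in that fit) and 11 lower (31.4%, beside 22.8%). In the fit of all 12 libraries 5 were lower (14.3%, beside 20%). Egr3, an early growth response factor, was at 78.7, 191, 176 and 104 in WT libraries 1 to 4 and 27.6, 18.7, 22.8 and 16 in Eμ-Myc libraries 1 to 4, a decrease of 2.60 with separate groups (adjusted p 0.000101).

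**Figure D5:**
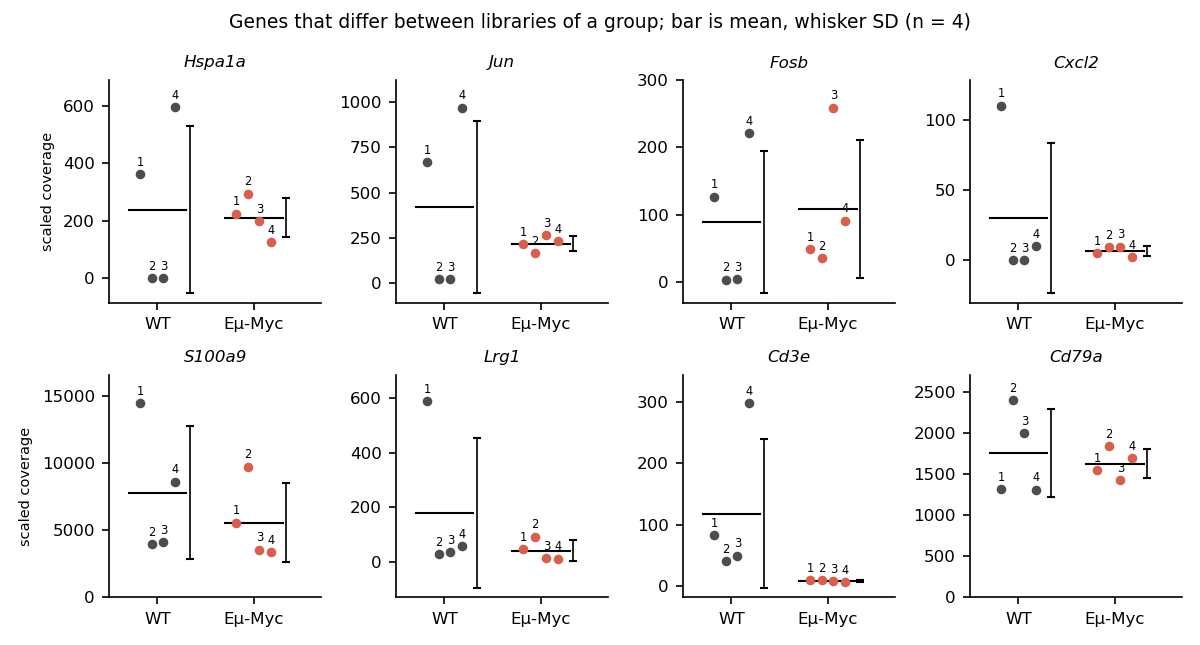
Scaled coverage (vertical axes, one scale per gene) of 8 genes that differ between libraries of one genotype. Points carry the replicate number, bars are means and whiskers SD over 4 libraries; WT libraries 2 and 3 hold 0.874 and 1.18 of Hspa1a against 362 and 594 in WT libraries 1 and 4.

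Within Eμ-Myc the most variable genes of at least a mean of 8 were Lrg1, Slfn4, Nupr1, Atf3 and Ifi208. Lrg1, a glycoprotein of neutrophils, was at 46.5, 92.4, 14 and 11.2 in Eμ-Myc libraries 1 to 4 and Slfn4, a gene of myeloid cells, at 113, 95.9, 18.2 and 20.7. S100a9, an abundant neutrophil protein, was at 14484, 3951, 4133 and 8619 in WT libraries 1 to 4 and 5569.96, 9739, 3558 and 3376 in Eμ-Myc libraries 1 to 4, so the libraries high in it were high in Lrg1 too. Ifi208 was at 12.9, 8.33, 1.89 and 1.77, with libraries 3 and 4 the lower as in Irf7, and fell against WT (log2 fold change -2.69, SE 0.58, adjusted p 0.00401). Between genes with a mean of at least 8 the median SD of log2 values was 0.19 in WT and 0.20 in Eμ-Myc.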

How the data were processed

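RNA-seq of 4 WT and 4 Eμ-Myc B-cell samples was used. RNA was extracted with TRIzol and PureLink columns, and strand-specific libraries were made from polyadenylated RNA, per the labels' protocols. The deposited values are a signal, coverage per gene symbol with 1 decimal, of which 91.7% of those above 0 are not whole numbers. They are not counts, so the depth is unknown and only the spread between libraries measures precision. The genome build was mm10, per the submitters' processing notes, which also name DESeq and R 4.3.3. The aligner, the annotation and the definition of coverage are not given in the sources used here.

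Libraries were scaled by a trimmed mean of log ratios to their geometric mean (30% of ratios and 5% of means trimmed). A gene was tested where 4 or more of the 8 libraries reached a scaled coverage of 1, by limma 3.58.1 in R 4.3.3 on log2(scaled coverage + 0.5), with a trended, robust variance, two-sided, and adjusted by Benjamini-Hochberg over all 12723 genes. The procedure was tested on simulated data, and the outcome is not given here. The plots and summaries used Python 3.11.15 with pandas 2.3.3.

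Gene lists (1624 symbols, 1620 matched) and members were chosen with earlier results of these data known. The rule for named genes took Myc and Prps2, the 15 largest called changes each way with separate groups and a mean of at least 8, the 8 most covered genes each way with a change of at least 1, up to 3 set genes and the 2 largest called changes each way of each list, the 5 most variable genes of each group and the promoter genes. Other list members and marker genes were named after their values were seen, and some genes are not reported here. Alternatives covered scaling, filter, pseudocount, library weights, a replicate block, all 12 libraries and leaving libraries out. Same-numbered WT and Eμ-Myc libraries deviated together with r of 0.229, -0.098, 0.263 and 0.134, so the numbers were not taken as pairs.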

Additional observations from a re-analysis of the deposited data

Results flagged for a closer look

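In each group of 4 libraries, the highest or lowest library of a gene was set apart when its gap to the nearest of the others exceeded Dixon's 95% critical share of the group's range. Of 594 series of 4 values tested, 46 met this. The rule flags about 1 in 20 series that are independent and chosen without regard to their values. Many of these genes were named for their change or spread in the same libraries, and some move together, as the T-cell genes do. The count of 46 can therefore not be set against that rate. All values are scaled coverage, and no cause was tested.

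WT library 1 was apart in Nt5dc2 at 9.84, Adgre5 at 2317, Mxd3 at 13.8, Sat1 at 1349.7, Hk2 at 23.9, Pfkfb4 at 239, Txnip at 1575, Mcm10 at 13, Ccnb1 at 18, S1pr1 at 139, Oasl2 at 243, Ulk1 at 53.6, Asns at 16.7, Per1 at 92, Lrg1 at 589, Slfn4 at 694 and Cxcl2 at 110.3. It was the highest of the WT libraries for each of these genes except S1pr1, where it was the lowest.

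WT library 4 was apart, and highest, in Dapl1 at 177, Tdrp at 255.7, Als2cl at 375, Bcl11b at 157, Themis at 79.3, Cd6 at 271, Ly6c1 at 118, Cd3e at 298, Izumo1r at 98.8, Gimap4 at 2537, Cd5 at 184, H2-Q7 at 1269 and Inpp4b at 103. Its summed T-cell markers, at 7506, were apart as well. WT library 2 was apart in Ndufa12 at 104.

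Eμ-Myc library 1 was apart in Dnph1 at 33.1, Phgdh at 247, Pkm at 1256, Mrpl12 at 266, Timm8a1 at 10.2, Bcl2 at 15.3, Gpr174 at 31.1, H2-Q6 at 74 and Psmg1 at 74.2. Eμ-Myc library 3 was apart in Fos at 395, Cd69 at 47.2 and Hspa5 at 1100.3. Eμ-Myc library 2 was apart in Mthfs at 35.9, and Eμ-Myc library 4 in Izumo1r at 1.53.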

How the results depend on the processing

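The number of genes called was 7051 with median-of-ratios scaling, 7293 with scaling by total coverage, 7260 without a filter, 5662 with a mean of at least 10, 7020 and 7030 with pseudocounts of 0.1 and 2, 5515 in the fit of all 12, 8948 with library weights and 5819 to 6863 when 1 library was left out. With a replicate block it was 7242, a pairing by number only; WT library 1 deviated most like Eμ-Myc library 2, WT libraries 2 and 4 like Eμ-Myc library 4 and WT library 3 like Eμ-Myc library 3. Leaving out 1 library gave 3123 to 3654 genes higher and 2667 to 3209 lower, and 1275 to 1557 and 1143 to 1467 with a change of at least 1. The mean filter left 850 genes lower by at least 1 in place of 1356, since fewer genes are tested. Of 295 named genes 257 were called, and 210 of these kept their call in all of the 18 alternatives that tested them. Not every named gene was tested in every alternative. Genes under 1 in all WT libraries, such as Bcat1, did not pass the filter when an Eμ-Myc library was left out. The depth behind a value is unknown, and levels between genes rest on coverage being per length.

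The direction of 19 named genes, none of them called with all 8 libraries, turned under some setting, 48 times in all, and the cause was not tested. With WT libraries 1 and 4 left out, an alternative chosen after seeing the data, log2 fold changes were 0.32 (Atf3), -0.35 (Cd79b), -0.084 (Dbp), -0.18 (Ebf1), 0.10 (Max), -0.0067 (Pdia4), -0.25 (Syk) and 0.15 (Ulk1). With library weights they were 0.72 (Atf3), -0.30 (Cd79b), 0.041 (Ctsd), -0.19 (Dbp), -0.055 (Ebf1), 0.028 (Egr1), -0.14 (Syk) and 0.046 (Ulk1). With scaling by total coverage they were -0.076 (Bcat2), -0.090 (Cd79b), -0.11 (Dbp), -0.011 (Hspa5), -0.0036 (Ogdh) and -0.12 (Syk), and with a pseudocount of 2 -0.10 (Cxcl2). Over the 8 fits without 1 library they ran from -0.0080 to 0.14 (Bcat2), -0.19 to 0.10 (Cd79a), -0.086 to 0.26 (Cd79b), -0.17 to 0.14 (Cd86), -0.46 to 2.13 (Cxcl2), -0.10 to 0.14 (Dbp), -0.054 to 1.54 (Fos), -0.13 to 1.74 (Jun), -0.11 to 0.051 (Max), -0.32 to 0.038 (Pax5), -0.16 to 0.14 (Syk) and -0.13 to 0.14 (Ulk1).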

Other observations

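Of 17 tested clock genes 3 rose and 5 fell, or 17.6% and 29.4% beside 29.2% and 26.1% of all tested genes, with a median log2 fold change of -0.10. That median was -0.24 with scaling by total coverage, -0.02 without WT library 4 and -0.04 without WT library 3. Nr1d1, a repressor of the clock, rose from 2.85 ± 0.92 to 12.4 ± 1.4 (log2 fold change 1.98, SE 0.23, adjusted p 8.92e-05), and Arntl, which drives it, by 0.68. Bhlhe40, another repressor that lymphocytes induce on activation, fell from 42.2 ± 2.09 to 9.96 ± 4.64 (log2 fold change -2.14, SE 0.28, adjusted p 0.000213), and its relative Bhlhe41 rose by 1.14. The hour at which the mice were killed is not given in the sources used here.

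Of 21 tested genes of the ATF4 integrated stress response 5 rose (23.8%), 4 fell (19%, and 2 genes in the fit of all 12 libraries) and 12 were not called, beside 29.2% and 26.1% of all tested genes higher and lower. The median of -0.01 changed sign between settings, from -0.17 with scaling by total coverage to 0.10 without WT libraries 1 and 4 and 0.02 without WT library 1. Asns, asparagine synthetase, rose from 6.69 ± 6.75 to 36.7 ± 6.62, with Psat1 and Phgdh of serine synthesis (log2 fold changes 2.74, 2.15 and 2.16). The signalling members Ddit3 and Trib3 fell by 0.84 and 1.04 (limma adjusted p 0.00315 and 0.0086). Of 33 endoplasmic reticulum chaperone and stress genes 15 rose (45.5%, beside 29.2% of all tested genes) and 4 fell (12.1%, beside 26.1%). With scaling by total coverage 12 rose (36.4%) and 8 fell (24.2%), beside 24.1% and 33.3% of all tested genes. Hspa5, the chaperone BiP, was at 1058, 869.97, 786 and 1013 in WT and 999.9, 995, 1100.3 and 996 in Eμ-Myc and was not called.

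Gene length went with direction. In the shortest of 4 equal classes of RefSeq genomic span (median 5340 bases) 36% were called higher and 20.7% lower, and in the longest (94851 bases) 19.8% and 33.3%. Coverage and length were not separated.

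The letters CCAAT, searched on both strands in the 300-base windows, stood in 27 of 36 mitosis genes (75%) and in 25 of 42 DNA replication genes (59.5%). The share was 43.4% for the 9807 tested genes with a window. Other raised lists were below it: nucleolar ribosome biogenesis (30.8%), cytosolic ribosomal proteins (31.7%), mitochondrial ribosomal proteins (39.7%), purine synthesis (40%) and the respiratory chain (41.7%). Among the 7786 genes with only 1 window the share was 40%. There purine synthesis (44.4% of 9 genes) and the respiratory chain (43.6%) were above it. The nucleolar (32.4%), cytosolic ribosomal (29.4%) and mitochondrial ribosomal (38.5%) lists stayed below it, and mitosis (72.7%) and DNA replication (58.8%) above. CACGTG stood in 13.1% of genes called higher, 10.5% of those lower and 12% of those not called, while windows of genes called higher held 22.5 CpG on average and those of genes called lower 19. A match is a description of letters only.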
